A study of Mus musculus with 23 samples.

Results

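Mx1 and Mx2, the 2 Mx genes of the mouse, were followed in the ovaries of female mice of 3 inbred strains, each fed 2 diets. They were picked by gene symbol as 2 of the 24716 genes in the deposited table of estimated counts. The pick was made with their strain differences known, so those differences are given below as levels and ratios without a test. Diet played no part in the pick and was tested. The files hold 1 RNA value per gene and library and no alleles, so the strain alleles themselves are not described.

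Mx proteins are large GTPases of the dynamin superfamily that cells make when type I or type III interferon reaches them. The mouse Mx1 protein is nuclear and known for blocking influenza viruses, and the Mx2 protein is cytoplasmic and known for acting on vesicular stomatitis virus. Many laboratory strains carry defective copies: in C57BL/6J the Mx1 gene lacks a block of coding exons, and its Mx2 gene carries a frameshift. Uninfected tissue usually holds little Mx RNA.

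All mice were wild type with no other treatment listed. NZO/HlLtJ, an inbred strain prone to obesity and diabetes, had 4 libraries on 44% fat and 4 on 10% fat. CAST/EiJ, an inbred line descended from wild Mus musculus castaneus, also had 4 on each diet. C57BL/6J, the strain of the reference genome, had 4 libraries on 44% fat and 3 on 10% fat. Both diets had added fiber and began at 6 weeks of age, and ovaries were collected at 15 weeks. The labels call the 44% diet high in sugar too, so fat and sugar changed together.

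The 23 libraries held 31.9 M to 45.9 M estimated counts, and 20189 genes passed the count filter and were tested. Levels are given in CPM, counts per 1000000 counts of a library after scaling with edgeR. Ovarian markers were present in every library: the summed level of 5 granulosa cell markers was 829 to 2836 CPM, that of 6 oocyte markers 86.4 to 396 CPM, and that of 3 theca cell markers 9.28 to 743 CPM. Theca markers stood at 9.28 and 9.71 CPM in C57BL/6J 10% fat replicates 1 and 3, against 321 to 678 CPM in the other 5 C57BL/6J libraries. Markers of oviduct epithelium, from the tube beside the ovary, summed to 5023 CPM in CAST/EiJ 10% fat replicate 2 and 201 CPM in C57BL/6J 44% fat replicate 1, against 0.629 to 39.3 CPM in the other 21 libraries. No label says that libraries came from separate animals, so a p-value here measures spread between libraries. In whole tissue, fewer cells of a type and less RNA per cell cannot be told apart.

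On genome build GRCm38 the pair lies on chromosome 16. Mx1 (ENSMUSG00000000386) spans 97447035 to 97462907 on the minus strand and Mx2 (ENSMUSG00000023341) spans 97535308 to 97560900 on the plus strand. GENCODE M21 lists Mx1 as protein coding, with 10 transcripts covering 3785 exon bases, and Mx2 as a polymorphic pseudogene, with 5 transcripts covering 3614 exon bases. Transcripts Mx1-205 and Mx2-201 were compared exon by exon. Exons 3 to 8 had equal lengths in both (193, 138, 155, 139, 199 and 79 bases), and exon 9 of Mx1-205 paired with exon 12 of Mx2-201 (77 bases). Over these 980 bases 73 differed, for 92.6% identity; exon 5 was the most alike at 99.4%, and the last pair the least at 62.3%. Exons 9, 10 and 11 of Mx2-201, with 123, 140 and 161 bases or 424 in all, had no partner in Mx1-205.

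**Figure D1:**
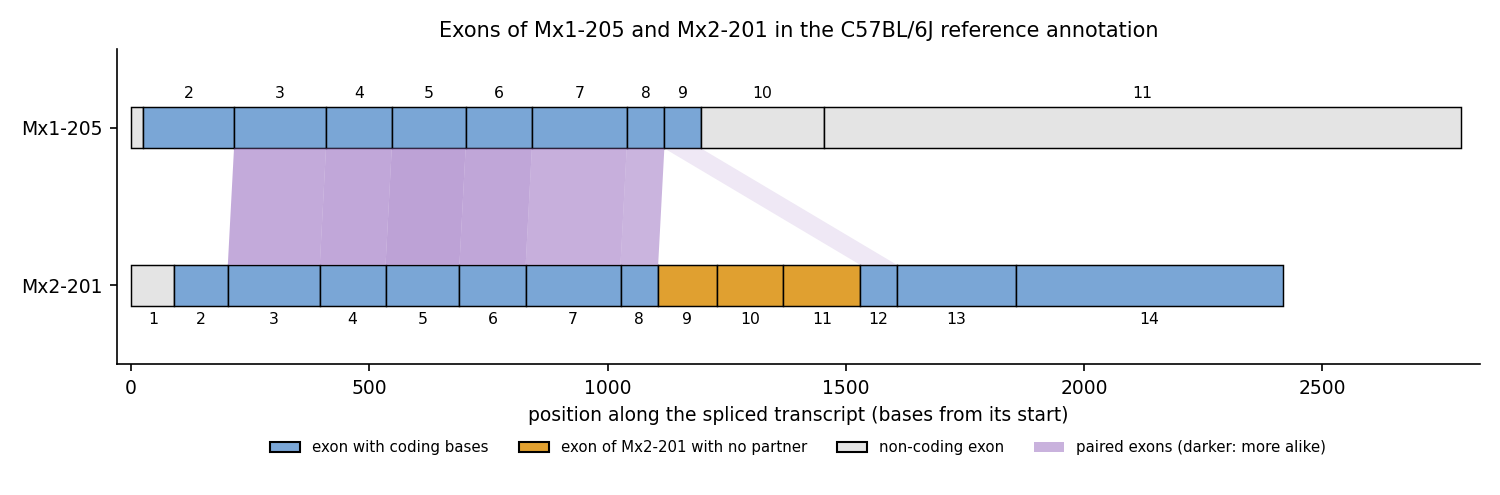
Exons of Mx1-205 and Mx2-201 drawn to scale along the spliced transcript, in bases from its start, with exon numbers. Purple bands join paired exons, darker where identity was higher (62.3% to 99.4%), and the 3 orange exons of Mx2-201 (424 bases) have no partner in Mx1-205.

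The sequences shown are those that bear on which gene a read can be given to. The longest run that both transcripts share is 140 bases of coding sequence across the junction of exons 5 and 6. In Mx1-205 it is read from chr16:97455489-97455617 and chr16:97455218-97455228 on the minus strand, and in Mx2-201 from chr16:97546351-97546479 and chr16:97546747-97546757 on the plus strand. Every base is the same, so none is in capitals.
Mx1-205 and Mx2-201 shared run: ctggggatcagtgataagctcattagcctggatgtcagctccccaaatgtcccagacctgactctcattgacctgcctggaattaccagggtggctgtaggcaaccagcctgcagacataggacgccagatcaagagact
The pair of 79-base exons shows the kind of difference that separates reads elsewhere. Exon 8 of Mx1-205 is at chr16:97452773-97452851 (minus strand) and exon 8 of Mx2-201 at chr16:97550897-97550975 (plus strand), with the 8 bases that differ in capitals.
Mx1-205 exon 8: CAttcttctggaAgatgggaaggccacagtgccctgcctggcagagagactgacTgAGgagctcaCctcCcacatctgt
Mx2-201 exon 8: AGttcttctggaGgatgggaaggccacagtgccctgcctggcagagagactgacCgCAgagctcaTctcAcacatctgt
The first of the exons without a partner, exon 9 of Mx2-201 (chr16:97551396-97551518, plus strand, 123 bases), directly follows that exon in the Mx2 transcript.
Mx2-201 exon 9: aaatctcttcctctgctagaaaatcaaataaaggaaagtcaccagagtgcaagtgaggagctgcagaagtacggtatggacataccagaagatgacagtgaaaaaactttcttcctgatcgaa

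Reads could be shared between both genes but with no other gene listed. Of the windows of 100 bases, the read length, 41 of 2691 in Mx1-205 (1.52%) and 41 of 2318 in Mx2-201 (1.77%) were exact in the other transcript, and no annotated gene besides these shared such a window with either. In 7 of the 23 libraries the counts of Mx1 and Mx2 were not whole numbers, yet their sum was whole within 0.001 in all 23. What one gene held in fractions of a read, the other thus completed, and both levels are uncertain by such shared reads. The reference annotation is that of C57BL/6J; how reads of the other strains were aligned is not given in the sources used here, and its effect on the levels was not tested.

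On average Mx1 RNA was highest in NZO/HlLtJ and lowest in C57BL/6J. On 44% fat the 4 NZO/HlLtJ libraries had 12.6, 16.8, 5.64 and 6.58 CPM of Mx1, and on 10% fat 8.20, 5.79, 6.99 and 11.5 CPM. CAST/EiJ libraries had 17.3, 3.35, 2.07 and 2.70 CPM on 44% fat and 2.06, 3.18, 4.69 and 13.2 CPM on 10% fat. C57BL/6J libraries had 1.35, 1.35, 1.47 and 1.03 CPM on 44% fat and 1.54, 0.589 and 1.90 CPM on 10% fat. The lowest NZO/HlLtJ library lay above 6 of the 8 CAST/EiJ libraries, while the other 2 of CAST/EiJ, at 17.3 and 13.2 CPM, lay among the highest of NZO/HlLtJ. All 7 C57BL/6J libraries lay below every library of the other 2 strains.

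Ordered by mean, Mx1 stood at 10.4 ± 5.28 CPM in NZO/HlLtJ on 44% fat, 8.12 ± 2.47 CPM in NZO/HlLtJ on 10% fat, 6.36 ± 7.32 CPM in CAST/EiJ on 44% fat and 5.79 ± 5.08 CPM in CAST/EiJ on 10% fat (SD, n = 4 each). Then came 1.34 ± 0.679 CPM in C57BL/6J on 10% fat (SD, n = 3) and 1.30 ± 0.188 CPM in C57BL/6J on 44% fat (SD, n = 4). Of the neighbours in this order, only CAST/EiJ on 10% fat and C57BL/6J on 10% fat had ranges that did not overlap. Without CAST/EiJ 44% fat replicate 1 the mean of its group was 2.71 CPM, below that of CAST/EiJ on 10% fat, whose own mean was 3.31 CPM without its replicate 4. Pooled over diets, Mx1 was 6.91 times as high in NZO/HlLtJ as in C57BL/6J (95% counting interval 6.19 to 7.75), 4.76 times as high in CAST/EiJ as in C57BL/6J (4.25 to 5.36) and 1.45 times as high in NZO/HlLtJ as in CAST/EiJ (1.37 to 1.54). These intervals cover counting error only and are narrower than the spread between libraries. Median Mx1 was 7.59 CPM in NZO/HlLtJ, 3.27 CPM in CAST/EiJ and 1.35 CPM in C57BL/6J. The pooled ratios with CAST/EiJ thus leaned on its 44% fat replicate 1 and its 10% fat replicate 4.

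Mx2 took another order. It was all but absent in NZO/HlLtJ, where the 4 libraries on 44% fat had 2, 2.01, 1 and 4 estimated counts and those on 10% fat had 1, 0, 4 and 3.1. In CAST/EiJ it reached 84.5, 23.4, 18.6 and 22.9 CPM on 44% fat and 22.98, 34.6, 35.2 and 46.2 CPM on 10% fat. C57BL/6J libraries had 5.13, 4.59, 5.31 and 4.75 CPM on 44% fat and 4.32, 3.09 and 4.28 CPM on 10% fat. The 3 strains did not overlap: the highest NZO/HlLtJ library had 0.0886 CPM, the CAST/EiJ libraries began at 18.6 CPM and the C57BL/6J libraries ran between 3.09 and 5.31 CPM. A count of 0, in NZO/HlLtJ 10% fat replicate 2, allows up to 3 counts, or 0.0686 CPM at that library's depth.

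The mean of Mx2 was 37.4 ± 31.5 CPM in CAST/EiJ on 44% fat, 34.8 ± 9.48 CPM in CAST/EiJ on 10% fat and 4.94 ± 0.331 CPM in C57BL/6J on 44% fat (SD, n = 4 each). It was 3.89 ± 0.696 CPM in C57BL/6J on 10% fat (SD, n = 3), and 0.0589 ± 0.0245 CPM on 44% fat and 0.0471 ± 0.0423 CPM on 10% fat in NZO/HlLtJ (SD, n = 4 each). Only the 2 CAST/EiJ groups and the 2 NZO/HlLtJ groups overlapped with their neighbour in this order. Without CAST/EiJ 44% fat replicate 1 that group's mean was 21.7 CPM and the 2 CAST/EiJ groups changed places. Pooled over diets, Mx2 was 83.9-fold lower in NZO/HlLtJ than in C57BL/6J (95% counting interval 52.5 to 145) and 683-fold lower than in CAST/EiJ (429 to 1181). It was 8.14 times as high in CAST/EiJ as in C57BL/6J (7.67 to 8.64). Of all genes tested 23.9% passed the test between NZO/HlLtJ and C57BL/6J, 46.8% between CAST/EiJ and C57BL/6J and 48.1% between NZO/HlLtJ and CAST/EiJ; nothing is read from this for Mx1 and Mx2, which were picked on these comparisons.

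**Figure D2:**
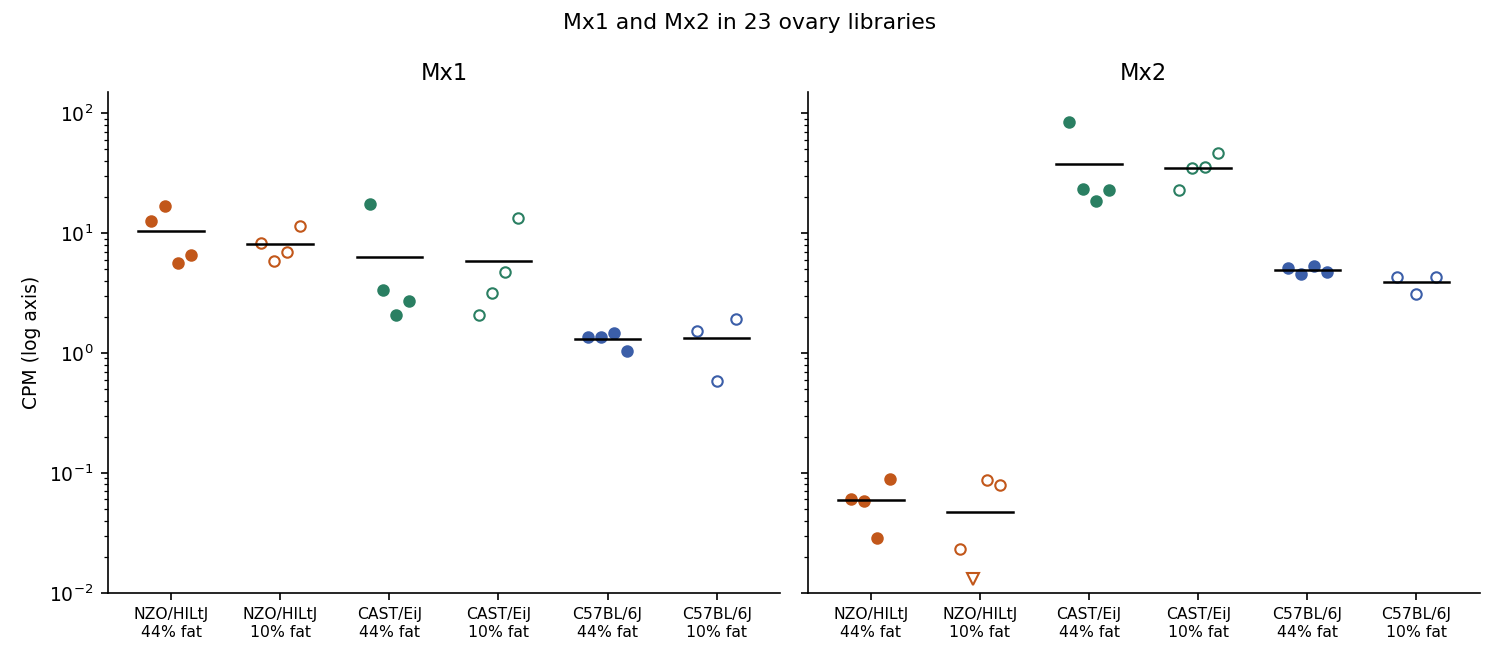
CPM of Mx1 (left) and Mx2 (right) on a log axis in each of the 23 libraries, by strain and diet; filled points are 44% fat, open points 10% fat, black lines group means, and the open triangle at the bottom is the library with a Mx2 count of 0. Mean Mx1 was highest in NZO/HlLtJ, where Mx2 stayed at or below 0.0886 CPM, and mean Mx2 was highest in CAST/EiJ.

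The balance between the 2 genes turned with strain. On a scale per kilobase of exon, the mean level of Mx1 was 167 times that of Mx2 in NZO/HlLtJ, while the mean level of Mx2 was 6.21 times that of Mx1 in CAST/EiJ and 3.57 times in C57BL/6J. For all 3 strains the exon bases were those of the C57BL/6J reference, whose Mx1 lacks a block of coding exons. Exons that another strain may have beyond that reference are not counted, and their effect on these ratios and on the shares below was not tested. Mx1 made up 98.7% to 100% of the reads of both genes in each NZO/HlLtJ library, 8.24% to 22.3% in each CAST/EiJ library and 16% to 30.8% in each C57BL/6J library. The exact 95% interval of a library (Clopper-Pearson) had its lower bound at 96.6% to 98.8% in NZO/HlLtJ, and the widest interval was 24.5% to 37.7%, in C57BL/6J 10% fat replicate 3. The summed counts of both genes were 198 to 586 in NZO/HlLtJ, 737 to 4185 in CAST/EiJ and 150 to 302 in C57BL/6J. Thus the Mx1 share did not overlap between NZO/HlLtJ and the other 2 strains, while CAST/EiJ and C57BL/6J overlapped between 16% and 22.3%.

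Markers of immune cells that could carry Mx RNA had overlapping ranges in all 3 strains, but their medians differed. The summed level of 8 macrophage markers was 179 to 290 CPM in NZO/HlLtJ, 148 to 496 CPM in CAST/EiJ and 260 to 445 CPM in C57BL/6J. Markers of plasmacytoid dendritic cells, the main makers of type I interferon in blood, summed to 3.299 to 6.64 CPM in NZO/HlLtJ, 2.20 to 8.53 CPM in CAST/EiJ and 3.45 to 8.80 CPM in C57BL/6J (3 markers). For 10 markers of T, B and NK lymphocytes the sums were 8.23 to 12.6 CPM, 3.42 to 9.05 CPM and 6.30 to 12.6 CPM in the same order of strains. In that order the median sums were 252, 225 and 338 CPM for macrophage markers. They were 4.30, 3.31 and 5.42 CPM for plasmacytoid dendritic cell markers and 10.8, 6.02 and 8.92 CPM for lymphocyte markers. Of these markers only Nkg7 was at 0, in CAST/EiJ 44% fat replicate 1. Their part in the levels of Mx1, Mx2 or the interferon genes below was not tested. In both libraries with the most oviduct RNA, Mx1 and Mx2 lay within the range of the other libraries of their group or strain: 3.18 and 34.6 CPM in CAST/EiJ 10% fat replicate 2, and 1.35 and 5.13 CPM in C57BL/6J 44% fat replicate 1.

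No effect of diet on Mx1 or Mx2 passed the test in any strain. The test was edgeR's quasi-likelihood test over all 20189 genes, with Benjamini-Hochberg adjustment and a threshold of 0.05. On 44% against 10% fat, the fitted log2 difference of Mx1 was 0.36 ± 0.61 (SE) in NZO/HlLtJ, 0.14 ± 0.61 in CAST/EiJ and -0.04 ± 0.71 in C57BL/6J, with edgeR adjusted p of 1, 0.952 and 0.993. For Mx2 it was 0.10 ± 0.36 in CAST/EiJ and 0.35 ± 0.41 in C57BL/6J, with edgeR adjusted p of 0.939 and 0.833. Each of these differences was smaller than its standard error. The fit used 1 estimate of spread per gene for all groups, so each standard error also holds the spread of the other strains. On 44% and 10% fat the SD of Mx2 was 0.331 and 0.696 CPM in C57BL/6J, and 31.5 and 9.48 CPM in CAST/EiJ. In NZO/HlLtJ the 4 libraries on 44% fat held 9.01 estimated counts of Mx2 in all and the 4 on 10% fat 8.10, too few for a fold change. So neither gene was called in CAST/EiJ or C57BL/6J, nor Mx1 in NZO/HlLtJ, where 0% of all genes were called in NZO/HlLtJ, 0.624% in CAST/EiJ and 0% in C57BL/6J. These shares moved with single libraries. In CAST/EiJ the count of 126 genes called was 28 without 44% fat replicate 2 and 220 without 10% fat replicate 1 of that strain, and in C57BL/6J it was 339 without 10% fat replicate 2. DESeq2 called 613 genes in CAST/EiJ and limma 78.

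Those counts of 0 need their context. At an unadjusted p under 0.05 there were 710 genes in NZO/HlLtJ and 1783 in C57BL/6J, and DESeq2 called 4 and 68 genes, while limma on the authors' variance-stabilised values called 0 in both. The smallest unadjusted p for Mx1 or Mx2 in any diet comparison was 0.406, for Mx2 in C57BL/6J. There all 4 libraries on 44% fat (4.59 to 5.31 CPM) lay above all 3 on 10% fat (3.09 to 4.32 CPM), a fitted 1.27-fold difference. A p above the threshold does not show equal levels.

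Averaged over strains, the log2 difference of Mx1 was 0.15 ± 0.37 (edgeR adjusted p = 0.990), with 0% of genes called, 1189 genes at an unadjusted p under 0.05, 19 called by DESeq2 and 0 by limma. The diet effect on Mx1 did not pass as different between strains either. Its difference was 0.40 ± 0.93 for NZO/HlLtJ minus C57BL/6J, 0.18 ± 0.94 for CAST/EiJ minus C57BL/6J and 0.22 ± 0.86 for NZO/HlLtJ minus CAST/EiJ (edgeR adjusted p of 1.000, 0.953 and 0.949). For Mx2 it was -0.24 ± 0.54 for CAST/EiJ minus C57BL/6J (edgeR adjusted p = 0.865). Genes called in these strain-by-diet comparisons made up 0%, 0.614% and 0.0149% of all genes tested, in the order given for Mx1. Where it was 0%, 790 genes had an unadjusted p under 0.05, DESeq2 called 5 and limma 0. For CAST/EiJ minus C57BL/6J the 124 genes called became 8 without C57BL/6J 10% fat replicate 1 and 852 without replicate 2 of that group, 851 with DESeq2 and 85 with limma. For NZO/HlLtJ minus CAST/EiJ the 3 genes called became 0 to 11 without single libraries, 195 with DESeq2 and 4 with limma.

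The sign of the diet difference in CAST/EiJ changed with single libraries. Without CAST/EiJ 44% fat replicate 1, which had 17.3 CPM of Mx1 and 84.5 CPM of Mx2, the log2 difference was -1.10 for Mx1 and -0.68 for Mx2. Without CAST/EiJ 10% fat replicate 4 it was 0.94 for Mx1 and 0.26 for Mx2. None of these passed the test. In that replicate 1 of 44% fat the macrophage marker sum was 303 CPM, against 262 to 496 CPM in the other 3 libraries of its group, and the plasmacytoid dendritic cell sum was 3.14 CPM, against 2.20 to 3.47 CPM. Outside the range of those 3 libraries were the white adipocyte sum at 176 CPM (41.3 to 129), the neutrophil sum at 0.778 CPM (0.150 to 0.457), the granulosa sum at 1667 CPM (1395 to 1643) and the oocyte sum at 211 CPM (215 to 308). The part of these cells in its Mx levels was not tested. Leaving out CAST/EiJ 44% fat replicate 1 also turned the mean diet effect on Mx1 over strains to -0.26.

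Mx1 and Mx2 moved together across CAST/EiJ libraries. The 2 libraries with the most Mx1 in CAST/EiJ, 44% fat replicate 1 and 10% fat replicate 4, also had the most Mx2, and the 2 with the least Mx1 were among the 3 with the least Mx2. Over the 8 libraries Pearson's r of log2 CPM was 0.931 and Spearman's rho 0.905, with exact two-sided permutation p of 0.000694 and 0.00456, or 0.00208 and 0.0137 adjusted over the 3 strains. Over deviations from the group means r was 0.933. Without the 2 libraries farthest from the Mx1 median, the pair just named, r was 0.797 over 6 libraries (exact permutation p = 0.0556, adjusted 0.167). Spearman's rho was then 0.771 (exact permutation p = 0.103, adjusted 0.308). The relation did not pass the threshold without them, but 6 libraries also give a test less power than 8. In 44% fat replicate 1, 10% fat replicate 4 and 1 more of the 8 libraries, the counts of the 2 genes held fractions of a read. The part of shared reads in the relation was not tested.

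In C57BL/6J r was 0.684 and rho 0 over 7 libraries (exact permutation p of 0.127 and 1, adjusted 0.190 and 1). Over deviations from group means r was 0.922 (permutation p = 0.00476, adjusted 0.00714) and rho 0.857. Deviations sum to 0 within each group but were permuted across both groups, so this p is not exact and nothing is read from it. Without C57BL/6J 10% fat replicates 2 and 3, the libraries farthest from the Mx1 median, r of log2 CPM was -0.05 over 5 libraries; the relation over deviations was not computed without them. In NZO/HlLtJ, where Mx2 had 0 to 4 counts, r was 0.391 and rho 0.190 over 8 libraries (exact permutation p of 0.344 and 0.665, adjusted 0.344 and 0.997).

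**Figure D3:**
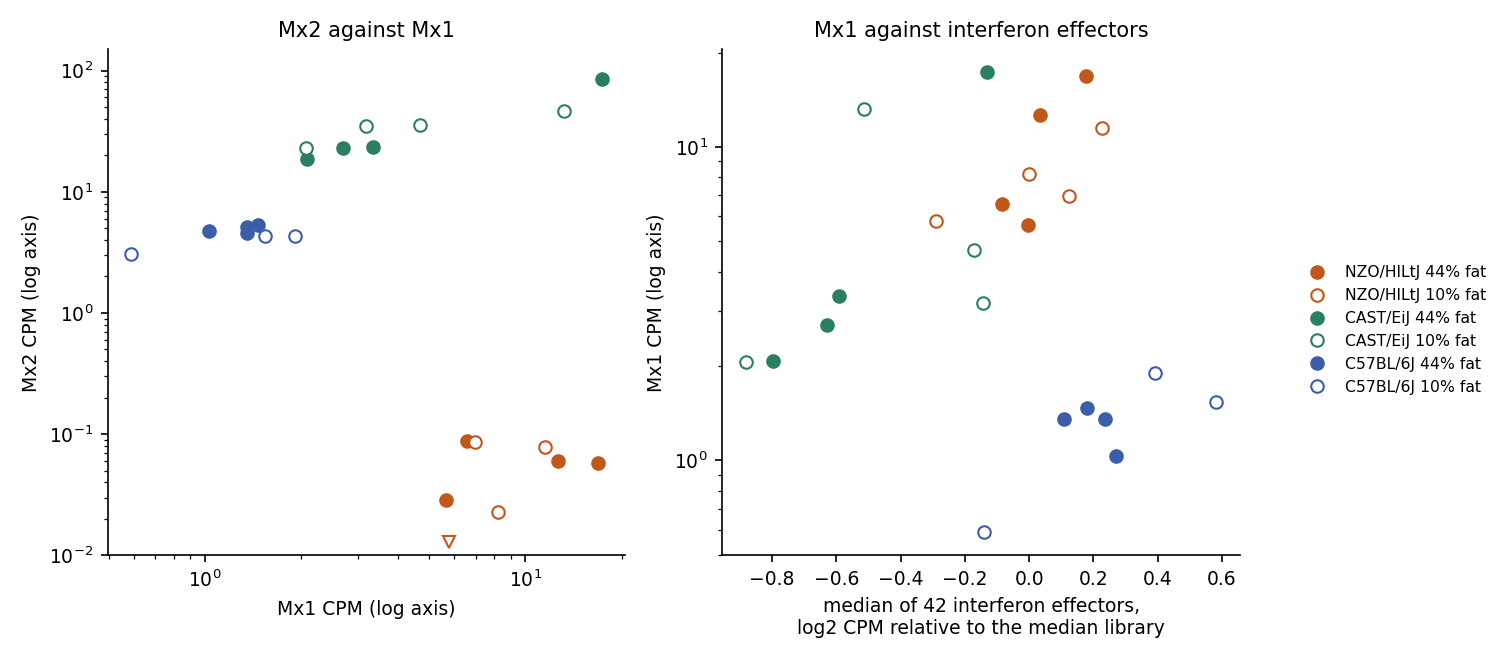
Left, Mx2 against Mx1 in each library, both in CPM on log axes; right, Mx1 in CPM on a log axis against the median level of 42 interferon-induced effector genes, in log2 units, each gene centred on its median over libraries. Filled points are 44% fat, open points 10% fat, and the triangle marks a Mx2 count of 0; the strains form 3 separate clusters in the left plot.

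Both Mx genes answer to the interferon pathway, so a list of 70 genes of that pathway was set beside them: receptors, signalling proteins, regulators, sensors of viral nucleic acid, and effectors that interferon switches on. Of these 69 were tested, and Ifi44l did not pass the count filter. The 3 strain comparisons share libraries pairwise, and each is given with its own values. Between CAST/EiJ and C57BL/6J the list ran against Mx1 and Mx2: 47 members fell in CAST/EiJ and 4 rose, while 18 did not pass (23.6% and 23.2% of all genes were called lower and higher). The median log2 difference of the list was -0.71, beside 0.01 over all genes tested.

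Among the 42 effectors tested 29 fell in CAST/EiJ against C57BL/6J and 0 rose. Oasl2, of the family of sensors of double-stranded RNA, had 4.57 to 17.7 CPM in CAST/EiJ libraries and 40.7 to 95.9 CPM in C57BL/6J libraries, a 6.97-fold lower fitted level (edgeR adjusted p = 8.8e-08). These ranges did not overlap. Oas2, which makes the 2'-5' oligoadenylates that activate RNase L, averaged 3.72 ± 4.12 CPM in CAST/EiJ (SD, n = 8) and 19.4 ± 6.19 CPM in C57BL/6J (SD, n = 7), 6.17-fold lower (edgeR adjusted p = 4.43e-05). Ifi44 was 5.73-fold lower and Sp100, a protein of nuclear bodies, 4.28-fold lower. Irf7, the transcription factor that amplifies interferon production, averaged 4.02 ± 3.001 CPM in CAST/EiJ and 19.8 ± 5.28 CPM in C57BL/6J, 4.97-fold lower (edgeR adjusted p = 4.94e-05). Oas and Sp100 genes belong to families of similar copies, so how reads were split among copies is uncertain.

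The 4 members that rose in CAST/EiJ were no effectors. Irf8, a transcription factor of myeloid cells, had 39.9 ± 14.8 CPM in CAST/EiJ and 22.3 ± 2.78 CPM in C57BL/6J, a 1.77-fold higher fitted level (edgeR adjusted p = 0.00555). The receptor-bound kinases Jak1 and Jak2 were 1.48-fold and 1.32-fold higher, and Mb21d1, which encodes the DNA sensor cGAS, was 1.29-fold higher. Of the 6 receptor genes 4 fell and of the 9 sensors 6 fell. By pooled ratio Mx1 and Mx2 were at 4.76 and 8.14 times their C57BL/6J level, while no effector of the list was called higher. Median Mx1 was 3.27 CPM in CAST/EiJ and 1.35 CPM in C57BL/6J, and median Mx2 was 29.0 and 4.59 CPM. Of the 42 effectors tested 8 had a positive and 34 a negative log2 difference. The list does not hold every interferon-induced gene.

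Between NZO/HlLtJ and C57BL/6J 11 of the 69 members were called. In NZO/HlLtJ 3 members rose, 8 fell and 58 did not pass, against 11.6% of all genes called higher and 12.3% lower, and the list's median log2 difference was -0.18, beside -0.0006 over all genes. The members that rose were Oas1c (1.47-fold), the tethering protein Bst2 (1.28-fold) and Jak2 (1.25-fold). Bst2 had 103 ± 6.74 CPM in NZO/HlLtJ and 80.7 ± 9.84 CPM in C57BL/6J (SD, n = 8 and n = 7; edgeR adjusted p = 0.00882). Among those that fell, Zbp1, a sensor of left-handed nucleic acid, was 2.26-fold lower, the RNA sensor Tlr7 1.92-fold, Trim30a 1.72-fold, the receptor chain Il10rb 1.56-fold and the mitochondrial kinase Cmpk2 1.53-fold lower. The calls of Zbp1 and Oas1c were lost in some of the 29 alternative fits, in 16 and in 6. The number of members called was 21 without C57BL/6J 10% fat replicate 2 and 17 without CAST/EiJ 10% fat replicate 2, in place of 11. Without single libraries it ran from 8 to 21, beside 3500 to 5606 of all genes, against 4826 in the main fit.

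Against CAST/EiJ, NZO/HlLtJ was higher in 37 members and lower in 5, with 27 not past the threshold (23.4% and 24.8% of all genes were called higher and lower). The median was 0.45, beside -0.02 over all genes. Oasl2 was 5.42-fold higher, Oas2 4.25-fold, Ifit2, which binds viral RNA, 4.19-fold, Irf7 4.16-fold and Ifi44 3.88-fold. The 5 that fell were Ifi27l2a (2.45-fold), Irf8 (2.12-fold), Jak1 (1.55-fold), Samd9l (1.52-fold) and the adaptor Mavs (1.19-fold).

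**Figure D4:**
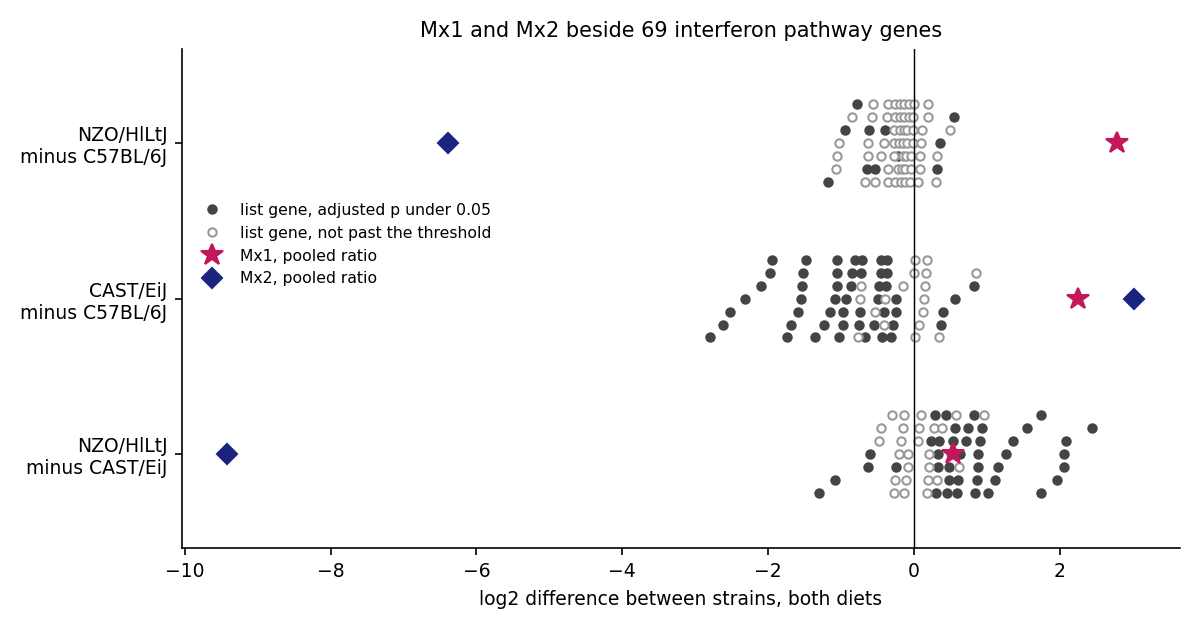
Log2 difference between strains, both diets together, for 69 interferon pathway genes (circles, filled where the edgeR adjusted p was under 0.05) with the pooled ratios of Mx1 (star) and Mx2 (diamond); heights within a row only spread the points. Between CAST/EiJ and C57BL/6J 47 of the circles were called lower, while pooled Mx1 and Mx2 lay at 4.76 and 8.14 times the C57BL/6J level. Median Mx1 was 3.27 CPM in CAST/EiJ and 1.35 CPM in C57BL/6J.

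Within strains the effectors varied between libraries. Each library was scored by its median log2 CPM over the 42 effectors, every gene centred on its own median across libraries. This effector score was -0.13 in CAST/EiJ 44% fat replicate 1, where Mx1 and Mx2 were highest, and -0.80 to -0.59 in the other 3 libraries of that group. On 10% fat in CAST/EiJ it was -0.88, -0.14, -0.17 and -0.51 in replicates 1 to 4. There replicate 4, next after that library in Mx1 and Mx2, was thus below replicates 2 and 3 in effectors. Replicate 2 is the library with 5023 CPM of oviduct markers, and 19 of 42 effectors were at their highest in the strain there. The part of oviduct RNA in its score was not tested. NZO/HlLtJ scores ran from -0.29 to 0.23, lowest in 10% fat replicate 2, whose 5.79 CPM was the second lowest Mx1 level of the strain. C57BL/6J scores ran from -0.14 to 0.58, and the lowest belonged to 10% fat replicate 2, which also had the least Mx1 (0.589 CPM) and Mx2 (3.09 CPM) of the strain. The highest, in C57BL/6J 10% fat replicate 1, came with 28 of 42 effectors at their highest in the strain, but not with the most Mx1 or Mx2. Next was 10% fat replicate 3 of the strain at 0.39, and these are the libraries low in theca markers. They had 1.54 and 1.90 CPM of Mx1, the highest of the strain. Their Mx2, at 4.32 and 4.28 CPM, was below all 4 C57BL/6J libraries on 44% fat.

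Diet moved few list members. In CAST/EiJ 1 of 69 passed, Tlr7, with 6.66 ± 1.99 CPM on 44% fat and 3.52 ± 0.761 CPM on 10% fat (SD, n = 4 each) and a log2 difference of 0.92 ± 0.21 (edgeR adjusted p = 0.0473); 0.525% of all genes were called higher. That call held in 8 of 30 alternative fits, with adjusted p of 0.0023 to 0.310. DESeq2 called 3 members and limma 0, beside 613 and 78 of all genes. Macrophages carry Tlr7, and the macrophage marker sum in CAST/EiJ was 262 to 496 CPM on 44% fat and 148 to 188 CPM on 10% fat; its part in the Tlr7 difference was not tested. In NZO/HlLtJ and in C57BL/6J edgeR, DESeq2 and limma called 0 members, with 1 and 5 members at an unadjusted p under 0.05. Averaged over strains 0 were called by all 3 tools, with 2 at an unadjusted p under 0.05.

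The receptor chains Ifnar2 and Il10rb differed in their diet effect between CAST/EiJ and C57BL/6J. Ifnar2, a chain of the type I interferon receptor, had 49.6 ± 1.61 CPM on 44% fat and 41.8 ± 3.01 CPM on 10% fat in CAST/EiJ (SD, n = 4 each), and 55.5 ± 2.18 CPM on 44% fat and 72.1 ± 13.7 CPM on 10% fat in C57BL/6J (SD, n = 4 and n = 3). The log2 difference of the diet effects was 0.63 ± 0.14 (edgeR adjusted p = 0.0411). For Il10rb, a chain of the type III interferon and interleukin-10 receptors, it was 1.22 ± 0.26 (edgeR adjusted p = 0.0377), with 55.8 ± 7.01 and 38.6 ± 5.21 CPM on 44% and 10% fat in CAST/EiJ, and 71.6 ± 3.71 and 115 ± 43.0 CPM on 44% and 10% fat in C57BL/6J. These 2 were the members called of 69, with 0.565% of all genes called higher and 0.0495% lower. The calls held in 11 and 12 of 29 alternative fits. Neither gene's diet effect passed within CAST/EiJ or C57BL/6J alone. The macrophage marker sum moved the same way: 262 to 496 CPM on 44% fat and 148 to 188 CPM on 10% fat in CAST/EiJ, and 260 to 339 CPM on 44% fat and 317 to 445 CPM on 10% fat in C57BL/6J. Of the 3 C57BL/6J libraries on 10% fat, 2 were those low in theca markers. The part of either in these calls was not tested. In the strain-by-diet comparisons of NZO/HlLtJ, against C57BL/6J and against CAST/EiJ, edgeR, DESeq2 and limma called 0 members, with 0 and 11 at an unadjusted p under 0.05.

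Members of the wider dynamin superfamily, which shapes membranes, were called with log2 differences of 0.52 or less. The counts of members called, 1 of 7 in NZO/HlLtJ against C57BL/6J and 4 of 7 in each of the other 2 strain comparisons, stand beside 23.9%, 46.8% and 48.1% of all genes, and nothing particular to the family is read from them. Dnm2, the dynamin of most tissues, fell in NZO/HlLtJ against C57BL/6J, by 0.14 on the log2 scale. Against C57BL/6J, CAST/EiJ was higher in Dnm3 (log2 difference 0.52), the mitochondrial fission protein Dnm1l (0.18) and the mitochondrial fusion protein Opa1 (0.16), and lower in Dnm1 (-0.49). NZO/HlLtJ was higher than CAST/EiJ in Dnm1 (0.49) and lower in Dnm3 (-0.33), Mfn1 (-0.14) and Mfn2 (-0.13).

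Genes beside the pair on chromosome 16 were described by position alone: the 6 listed genes nearest on either side and the 2 between, of which 12 were tested. Between CAST/EiJ and C57BL/6J 6 of the 12 were called, all higher in CAST/EiJ, where 23.2% of all genes were called higher. Of these, 5 lay before Mx1, at -1211 to -855 kb from its start. Fam3b, which lies between Mx1 and Mx2 and encodes a secreted protein of pancreatic islets, had 0.112 to 0.496 CPM in CAST/EiJ and 0 to 0.215 CPM in C57BL/6J (log2 difference 3.14 ± 0.57, edgeR adjusted p = 0.000131). B3galt5, a galactosyltransferase, averaged 9.56 ± 3.31 CPM in CAST/EiJ (SD, n = 8) and 3.47 ± 1.29 CPM in C57BL/6J (SD, n = 7), with 1.46 ± 0.20 (edgeR adjusted p = 6.41e-06). Dscam, a neuronal adhesion molecule, had 1.22 CPM in CAST/EiJ and 0.606 CPM in C57BL/6J, and Itgb2l, an integrin chain, 0.212 and 0.0251 CPM. The others, Igsf5 and Pcp4, were no longer called without CAST/EiJ 10% fat replicate 2, which held the most oviduct RNA (edgeR adjusted p of 0.234 and 0.223). Over all 29 alternative fits their calls were lost in 8 and in 17. Igsf5 overlaps Itgb2l and Pcp4, and Fam3b overlaps the untested Gm9242, so how reads were split among these is uncertain.

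In NZO/HlLtJ against C57BL/6J 3 of 12 neighbours were called, beside 23.9% of all genes. Dscam rose (1.09 ± 0.27, edgeR adjusted p = 0.00629), and the kinase gene Ripk4 and C2cd2 fell by 1.08 and 0.23 on the log2 scale. The call of Dscam held in 29 of 29 alternative fits, while those of Ripk4 and C2cd2 were lost in 3 and in 10. NZO/HlLtJ was lower than CAST/EiJ in 9 of 12 neighbours and called higher in none of them; 24.8% of all genes were called lower there. The log2 difference was -1.75 ± 0.19 for B3galt5, -1.11 ± 0.32 for Ripk4 and -0.41 ± 0.07 for C2cd2. Fam3b had 0 to 0.0459 CPM in NZO/HlLtJ, below every CAST/EiJ library. Without CAST/EiJ 10% fat replicate 2 the count was 6, with Igsf5, Tmprss2 and Prdm15 no longer past the threshold. In this comparison 9054 to 9982 of all genes were called without single libraries, against 9714 in the main fit. Bace2, the nearest tested gene on the Mx1 side, did not pass in any strain comparison with edgeR, though it was called lower in NZO/HlLtJ than in C57BL/6J in 3 of 29 alternative fits: DESeq2, and edgeR without C57BL/6J 44% fat replicate 2 or 4 (lowest adjusted p 0.0332). It averaged 16.1 CPM in NZO/HlLtJ, 25.5 CPM in CAST/EiJ and 31.3 CPM in C57BL/6J. Tmprss2, the nearest on the Mx2 side and known as a protease that activates influenza virus, had 0 to 0.326 CPM in NZO/HlLtJ, 0 to 11.98 CPM in CAST/EiJ and 0.0312 to 2.02 CPM in C57BL/6J.

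**Figure D5:**
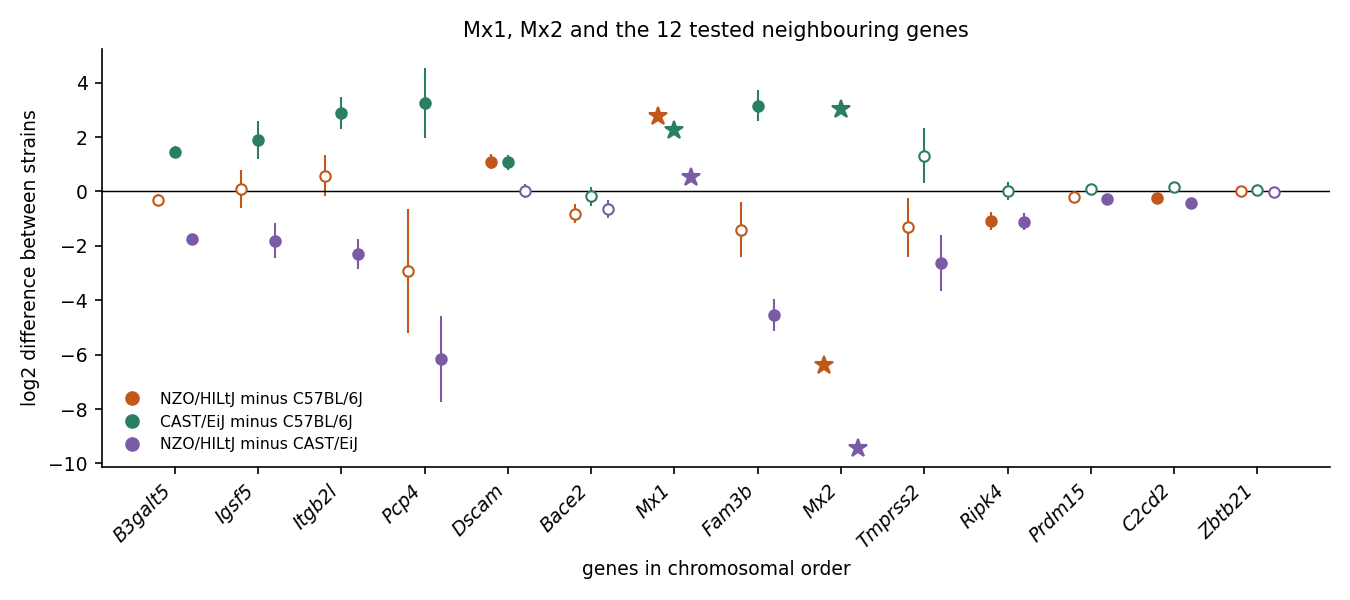
Log2 differences between strains, both diets together, for the 12 tested genes around Mx1 and Mx2 in chromosomal order; circles are fitted values with their standard errors, filled where the edgeR adjusted p was under 0.05, and stars are the pooled ratios of Mx1 and Mx2. Mx1 and Mx2 lie apart from each other in NZO/HlLtJ minus C57BL/6J, where Mx1 was 6.91 times as high and Mx2 83.9-fold lower.

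The genes most like Mx1 and Mx2 were ranked by Pearson's r over all 23 libraries among 13771 genes with a mean of at least 1 CPM. The libraries fall into strains, so these r hold the differences between strains too. For log2 CPM of Mx1 the first 5 were Slc26a2 (r = 0.875), a sulfate transporter, Eif2ak4 (0.852), the amino acid sensing kinase GCN2, Tlr6 (0.851), a receptor for bacterial lipopeptides, Gbp2b (0.846), an interferon-induced GTPase, and Rbm46 (0.845), a germ cell RNA-binding protein. Gbp2b had 8.59 CPM in NZO/HlLtJ, 2.02 CPM in CAST/EiJ and 0.254 CPM in C57BL/6J, the same order of strains as Mx1. It was picked by r over libraries that fall into strains, so this order is no separate result. For Mx2 they were Nlrp1a (0.962), an inflammasome sensor, Zfp932 (0.961), Rsl1 (0.957), a zinc finger repressor, Fra10ac1 (0.956) and Raet1e (0.949), a ligand of the NK cell receptor NKG2D. Nlrp1a averaged 0 CPM in NZO/HlLtJ, 5.09 CPM in CAST/EiJ and 0.392 CPM in C57BL/6J. Mx1 and Mx2 themselves had r = -0.36 with each other.

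Once each group's mean was taken out, other genes came first. Mx1 was then most like Gbp6 (r = 0.918), an interferon-induced GTPase, Ifit2 (0.872), Cxcl10 (0.866), the interferon-induced chemokine, Ifit3b (0.851) and Zbp1 (0.850). Mx2 was most like Irf7 (0.843), Uba7 (0.837), the enzyme that starts ISG15 conjugation, Pou6f1 (0.830), Hacl1 (0.828) and Oasl2 (0.822). Of these 10 genes Ifit2, Ifit3b, Zbp1, Irf7 and Oasl2 were in the interferon list, and of the first 10 by log2 CPM none was. Mx1 and Mx2 had r = 0.773 with each other on this measure, at rank 20 in both rankings. All these r share the 23 libraries and their depth and are given as descriptions. They also hold CAST/EiJ 44% fat replicate 1, at 84.5 CPM of Mx2, and NZO/HlLtJ libraries with 0 to 4 counts of Mx2. No ranking without these libraries is given.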

How the data were processed

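RNA of mouse ovaries was sequenced as 23 poly(A) libraries in 100-base read pairs. Per the submitters' processing notes GRCm38 and DESeq2 were used; the aligner, counter, annotation release, use of strand, and whether strain genomes served for alignment are not given in the sources used here. The deposited estimated counts per gene (22.0% of values not whole) were rounded and analysed with edgeR 4.0.16 in R 4.3.3: TMM scaling, filterByExpr (minimum count 10, minimum total 15), 6 group means, robust glmQLFit and glmQLFTest, Benjamini-Hochberg adjustment over 20189 genes, threshold 0.05. The authors' deposited variance-stabilised log2 values served limma 3.58.1 as an alternative; DESeq2 1.42.0 was another. The edgeR step was tested on simulated counts.

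Mx1 and Mx2 and all gene lists were chosen with earlier results of these data known. Named genes were the neighbours, the 5 genes most correlated with each Mx gene on 2 measures, list members called for diet, and up to 5 list members per direction in strain comparisons. Correlations used exact permutation of pairings on log2 CPM with a prior count of 2. For deviations from group means the same permutation is not exact. Replicates were numbered in deposit order. Exon structures came from GENCODE M21; promoter and protein sequences were not used here.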

Additional observations from a re-analysis of the deposited data

Results flagged for a closer look

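In CAST/EiJ on 44% fat, replicate 1 had 17.3 CPM of Mx1, apart from the other 3 libraries of the group at 2.07 to 3.35 CPM, with a gap of 0.916 of the group's range. The same library had 84.5 CPM of Mx2, against 18.6 to 23.4 CPM in the other 3, with a gap of 0.926 of the range. Both gaps are past Dixon's 95% critical value for 4 libraries, and chance sets apart about 1 in 20 groups; 15 groups were examined. The effect of diet was called different between CAST/EiJ and C57BL/6J for Ifnar2, by 0.63 on the log2 scale, and for Il10rb, by 1.22. Each call came from a test of the difference itself and held in 11 and 12 of 29 alternative fits. C57BL/6J 10% fat replicates 1 and 3, which enter both, were low in theca markers, and the part of this was not tested.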

How the results depend on the processing

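No diet result of Mx1 or Mx2 passed the threshold in any of 295 alternative fits of 10 results (lowest adjusted p 0.158), but near-zero log2 differences changed sign. With the identifier series as a term Mx1 was at -0.13 in CAST/EiJ and 0.0050 in C57BL/6J (difference -0.13), and Mx2 at -0.010 in CAST/EiJ. With limma on the deposited log2 values Mx1 was at -0.017 in CAST/EiJ and 0.011 in C57BL/6J (difference -0.029), and Mx2 at -0.12 in CAST/EiJ. Without the 2 libraries highest in oviduct markers Mx1 was at -0.061 in CAST/EiJ. Leaving out 1 library at a time gave -1.10 to 0.94 for Mx1 in CAST/EiJ, -0.41 to 0.28 in C57BL/6J, -0.26 to 0.42 averaged over strains, -1.06 to 0.98 for the CAST/EiJ minus C57BL/6J diet difference and -0.58 to 1.45 for NZO/HlLtJ minus CAST/EiJ; for Mx2 in CAST/EiJ it gave -0.68 to 0.33. The causes were not tested.

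The interferon list's diet count in CAST/EiJ (1) was 3 with DESeq2 and 0 to 2 without single libraries. It was 0 with the identifier series, limma, no count filter, only the groups compared or without the 2 oviduct-rich libraries. Of all genes 126 were called there in the main fit, 613 with DESeq2, 78 with limma and 28 to 220 without single libraries. The strain-by-diet count for CAST/EiJ minus C57BL/6J (2) was 4 with DESeq2 and 0 to 3 without single libraries. It was 0 with the identifier series, limma or without the oviduct-rich pair. Beside it, 124 of all genes were called in the main fit, 851 with DESeq2, 85 with limma and 8 to 852 without single libraries. Without single libraries the diet count in C57BL/6J was 0 to 3, beside 0 to 339 of all genes. The NZO/HlLtJ minus C57BL/6J count was then 8 to 21, beside 3500 to 5606 of all genes. Neighbours called in NZO/HlLtJ against C57BL/6J (3) came to 1 with the identifier series. Without single libraries they came to 1 to 4, beside the same 3500 to 5606 of all genes.

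Neighbours near 0 changed sign. Dscam in NZO/HlLtJ minus CAST/EiJ (0.01) was -0.029 with the identifier series, -0.0085 with limma, -0.062 without the oviduct-rich pair and -0.091 to 0.18 without single libraries. In CAST/EiJ minus C57BL/6J, Bace2 (-0.18) was 0.032 with the identifier series and -0.44 to 0.15 without single libraries, and Ripk4 (0.02) was -0.035 with limma, -0.41 without the oviduct-rich pair and -0.46 to 0.17 without single libraries. Zbtb21 in NZO/HlLtJ minus C57BL/6J (0.006) was -0.00031 with no count filter, -0.0047 without that pair and -0.027 to 0.045 without single libraries, and in NZO/HlLtJ minus CAST/EiJ -0.058 to 0.0048. Igsf5 in NZO/HlLtJ minus C57BL/6J ranged from -0.14 to 0.63.

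The Mx1 to Mx2 correlation in CAST/EiJ was 0.797 without the 2 libraries farthest from the Mx1 median; in C57BL/6J it was -0.051 without such a pair and 0.922 over deviations from group means. Neither the identifier series (none of 82 in NZO/HlLtJ on 44% fat, none of 90 in either 10% group of NZO/HlLtJ and C57BL/6J) nor any other label is called a batch. No paired analysis was possible because the labels carry no replicate numbers. With 0 to 4 counts a library, depth limits Mx2 in NZO/HlLtJ.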
